A study of Mus musculus with 12 samples.

Results

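The 10 genes described here encode the 8 E2F transcription factors of the mouse, E2f1 to E2f8, and the pocket proteins RB (Rb1) and p107 (Rbl1), which bind them. They were chosen as a family, by looking up each symbol among the 56941 Ensembl gene IDs of the count table, and each symbol matched 1 ID. RNA came from RAW264.7 cells, an established murine macrophage line, grown as a monolayer on a porous culture insert under standard culture conditions. In the compressed group (n = 6) a cushion of agarose and a printed weight lay on the cells for 24 h and applied 0.14 kPa. In the control group (n = 6) the cells carried the cushion alone for 24 h, so both groups had the agarose and differed in the weight. All samples were 1 cell line with no genetic change named in the labels. Whether the 6 samples of a group were separate cultures is not stated, and the p-values below therefore reflect sample-to-sample spread that may be only technical.

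E2F proteins bind a short DNA element in the promoters of genes needed for DNA synthesis and cell division. E2F1, E2F2 and E2F3 activate these genes once cyclin-dependent kinases have released them from RB. E2F4 and E2F5 repress them together with p107 and p130, and with the MuvB proteins these form the DREAM complex of resting cells. E2F6 represses without a pocket protein, through Polycomb proteins, and E2F7 and E2F8 are atypical repressors that need no dimerisation partner and damp the activators late in S phase. Several of these genes, E2f1, E2f7, E2f8 and Rbl1 among them, are known as E2F targets themselves.

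The promoters of the members are shown for that reason. RefSeq promoter windows on GRCm38.p6, from 250 bases before to 50 bases after a start site, were found for 7 of the 10 members: E2f1, E2f2, E2f3, E2f6, E2f7, E2f8 and Rbl1. They were searched on both strands for 4 spellings of the E2F consensus (TTTCGCGC, TTTGGCGC, TTTCCCGC and TTTGCCGC) and for the letters of the cell cycle homology region, or CHR (TTTGAA), an element of DREAM targets. Neither motif contains the other. The E2F letters were in windows of 4 of the 7 members and in 2.6% of the 27025 genes with a window. CHR letters were in windows of 3 of the 7 members and in 20.2% of those genes. Stretches of 30 bases on the strand of the gene follow, with the matched letters in capitals. A capital stretch beginning GCGGG or TTCAAA is a match on the opposite strand.
E2f2, E2F letters: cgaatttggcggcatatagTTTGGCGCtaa
E2f3, E2F letters: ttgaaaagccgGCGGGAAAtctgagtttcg
E2f3, CHR letters: atgcaaatatggTTTGAAaagccggcggga
E2f7, E2F letters: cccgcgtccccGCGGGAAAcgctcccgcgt
E2f8, CHR letters: gagcgggttaatTTCAAAtcgggggctgga
Rbl1, E2F letters: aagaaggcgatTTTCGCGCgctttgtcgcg
The Rbl1 stretch is chr2:157204534-157204563 on the minus strand, with the first capital at -18 from the start site. The E2f3 stretches are chr13:29986056-29986085 and chr13:29986069-29986098 on the minus strand, with first capitals at -11 and -23, so both motifs lie side by side just before the start. The E2f7 stretch is chr10:110745230-110745259 on the plus strand, at -198, and the E2f8 stretch is chr7:48881599-48881628 on the minus strand, at -20. The E2f2 stretch, chr4:136172294-136172323 on the plus strand, begins its capitals 40 bases into the RefSeq transcript, which is upstream of the start at 136172394 in the GENCODE M21 annotation of GRCm38. At a second E2f2 start the CHR letters also occurred, at -31. E2f6 and a second start of E2f3 held no match. Neither did E2f1, whose RefSeq window is centred near 154569426 on chromosome 2, inside the gene as GENCODE draws it (start 154569892). A match is only a spelling in these windows, and no binding was measured.

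Total counts were 33460807 to 39103987 per compressed library and 37948795 to 40463545 per control library, and levels are given as CPM, counts scaled to a common library size after TMM normalization. The cells carried macrophage transcripts: Lyz2 averaged 4204 CPM in compressed and 2678 CPM in control cells, Csf1r 1385 and 1616 CPM, and Cd68 640 and 720 CPM. Of 7 macrophage markers 3 were called higher and 3 lower, and their sum was 6348 to 7638 CPM in compressed and 5230 to 5635 CPM in control libraries. The 13 markers of other cell types summed to 0.727 to 1.07 CPM in compressed and 0.591 to 1.12 CPM in control libraries, and the lymphocyte genes Cd3e, Cd3g and Ms4a1 were at 0. Compressed replicate 6 stood apart from the other compressed libraries, at -26.67 on the second principal component against 3.27 to 7.19, and values without it are given where they change a result.

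Compression lowered 8 of the 10 genes, E2f1, E2f2, E2f3, E2f4, E2f6, E2f7, E2f8 and Rbl1, raised Rb1 and left E2f5 uncalled. All 10 passed the filter on low counts. A gene was called when its Benjamini-Hochberg adjusted p from edgeR was at most 0.05 over the 15001 genes tested, of which 24.5% were called higher and 21.9% lower. In each of the 8 lowered genes the highest compressed library lay below the lowest control library, which held for 17% of all tested genes. The opposite separation held for 16.5% of all tested genes and for none of the members. The median log2 fold change was -0.49 over the 10 members and 0.02 over all tested genes. The same 8 genes were called lower and Rb1 higher when compressed replicate 6 was left out. In bulk RNA, fewer cells of a kind and less RNA per cell cannot be told apart.

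**Figure D1:**
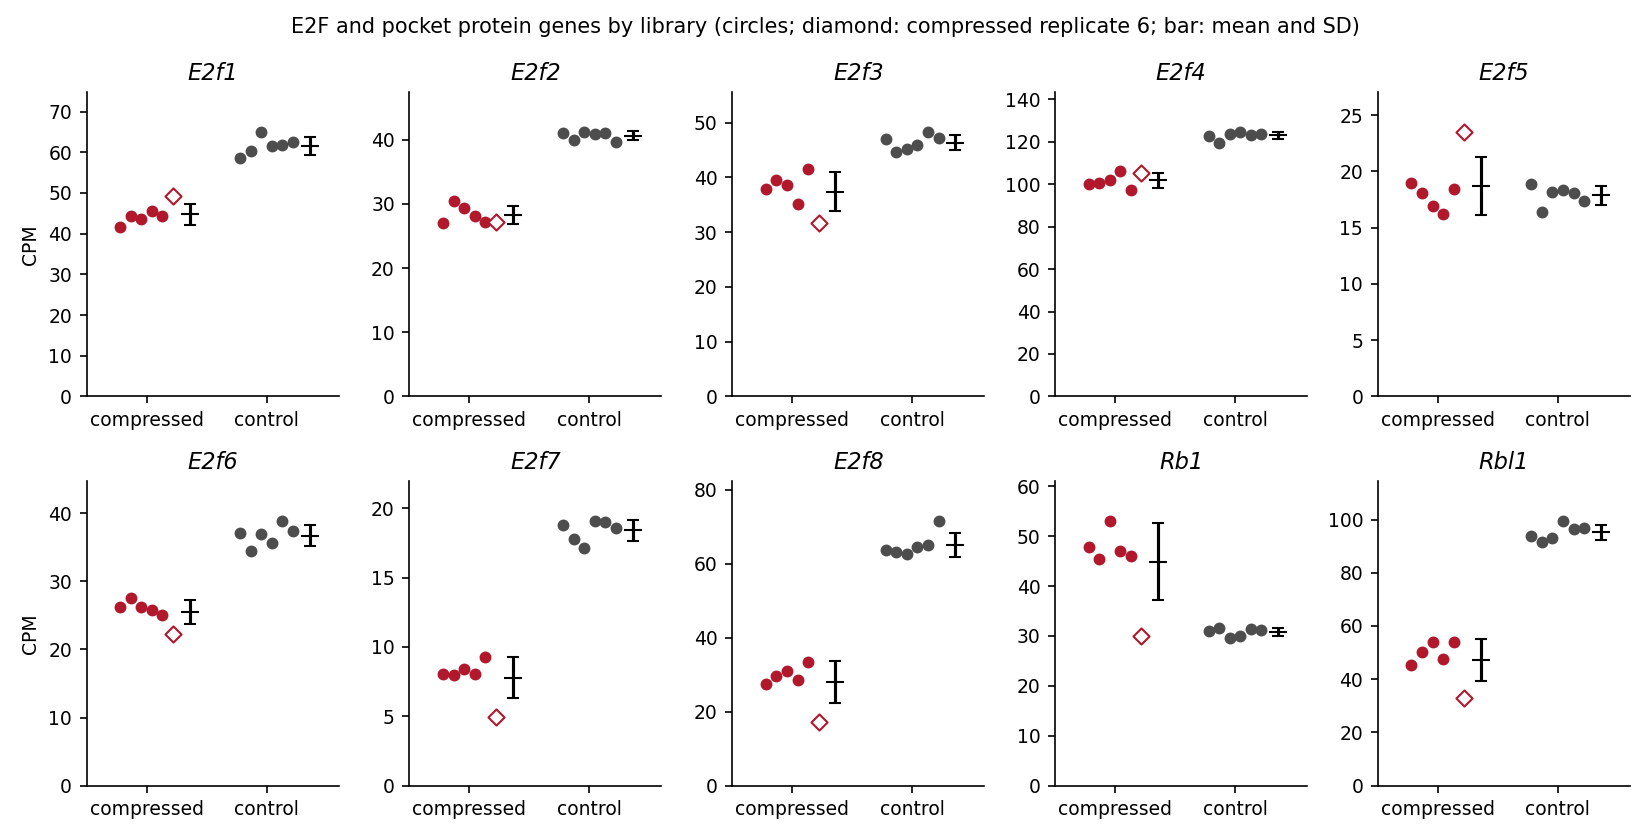
CPM of each member (vertical axes, from 0) in the 6 compressed libraries (red) and the 6 control libraries (grey), with the mean and SD as a black bar and compressed replicate 6 as an open diamond. The groups are apart for 8 genes, with compression lower; for Rb1, 5 compressed libraries lie above the controls and replicate 6, at 30.01 CPM, lies among them.

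All 3 activators fell, with log2 fold changes of -0.53 to -0.31. E2f1, the factor that drives entry into S phase and can also drive apoptosis, had 41.5, 44.3 and 49.3 CPM (lowest, median and highest) in compressed cells, against 58.5, 61.7 and 65.0 CPM in control cells. The highest compressed value was that of replicate 6, and the groups did not overlap. The log2 fold change of E2f1 was -0.46 (SE 0.048, 95% interval -0.56 to -0.36, adjusted p = 3.03e-06 from edgeR), a decrease of 27.3%. E2f2, the activator best known from lymphoid and erythroid cells, had 27.1, 27.7 and 30.4 CPM in compressed cells, against 39.7, 40.9 and 41.3 CPM in control cells. The spread was small beside the gap between the groups, with an SD of 1.38 around 28.2 CPM in compressed and of 0.652 around 40.6 CPM in control cells. E2f2 changed by -0.53 on the log2 scale (SE 0.041, adjusted p = 2.23e-07 from edgeR). E2f3, whose locus gives an activator and a shorter isoform that gene counts do not separate, had 31.6, 38.3 and 41.5 CPM in compressed cells, against 44.6, 46.5 and 48.4 CPM in control cells. The groups were again apart, and the lowest library was compressed replicate 6. E2f3 changed by -0.31 (SE 0.061, adjusted p = 8.28e-04 from edgeR).

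Of the repressors that work with pocket proteins, E2f4 fell and E2f5 was not called. E2f4, the most abundant E2F of many resting cells and the usual E2F of DREAM, had 97.1, 101 and 106 CPM in compressed cells, against 119, 123 and 125 CPM in control cells. Every compressed library was below every control library, and the log2 fold change was -0.27 (SE 0.038, adjusted p = 5.38e-05 from edgeR). E2f5, its closest relative, had 16.2, 18.3 and 23.5 CPM in compressed cells, against 16.4, 18.1 and 18.9 CPM in control cells. The groups overlapped, and the 23.5 CPM of compressed replicate 6 was the only value above the control range by more than 1 CPM. Its log2 fold change was 0.066 (95% interval -0.11 to 0.24, adjusted p = 0.536 from edgeR), and without replicate 6 it turned to -0.014 (adjusted p = 0.813). Exons of 1810022K09Rik overlap E2f5 on the opposite strand, and the strand setting of the counting is not given in the sources used here. That gene had 91.1 CPM in compressed replicate 6 and 46.2 to 53.0 CPM in the other compressed libraries, against 40.4 to 43.9 CPM in control libraries, and its part in the E2f5 counts was not tested.

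E2f6, which represses through the Polycomb complex PRC1.6, had 22.3, 26.01 and 27.5 CPM in compressed cells, against 34.4, 37.0 and 38.9 CPM in control cells. The groups did not overlap, and the log2 fold change was -0.53 (SE 0.053, adjusted p = 2.36e-06 from edgeR), close to that of E2f2. Among 10 genes of PRC1.6 partners 3 fell, 1 rose and 6 were not called, where 21.9% of all tested genes fell and 24.5% rose. The median log2 fold change of the 10 was -0.08. Those that fell were the chromodomain gene Cbx3 (-0.56), L3mbtl2 (-0.45), which recruits the complex, and Wdr5 (-0.34). The ubiquitin ligase gene Ring1 rose by 0.22. Without compressed replicate 6 the number called lower was 5, with Pcgf6 (-0.17) and Max (-0.13) added. Of 5 germline genes that E2F6 silences in somatic cells, none could be tested. Stag3 had 2 counts over the compressed libraries and 7 over the control libraries, Smc1b 2 and 10, Tuba3a 1 and 3, Slc25a31 0 and 1, and Tuba3b 0 in both groups, so no difference between groups was detectable at this depth.

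The atypical repressors had the largest decreases among the members, with all 12 libraries and without compressed replicate 6. E2f7 had 4.96, 8.03 and 9.31 CPM in compressed cells, against 17.1, 18.7 and 19.1 CPM in control cells. No compressed library came near the controls, and the lowest was replicate 6. The log2 fold change of E2f7 was -1.24 (SE 0.11, adjusted p = 8.62e-07 from edgeR), so that 0.36% of tested genes, E2f7 included, had a value this low or lower. E2f8, which forms dimers with E2F7 in repression, had 17.2, 29.2 and 33.4 CPM in compressed cells, against 62.6, 64.1 and 71.5 CPM in control cells. The lowest compressed and the highest control values each came from a replicate 6, and the other libraries of each group lay close together. E2f8 changed by -1.22 (SE 0.12, 95% interval -1.49 to -0.96, adjusted p = 2.26e-06 from edgeR). The pair fell in step: per kilobase of exon, E2f7 was 0.169 ± 0.0056 of E2f8 in compressed cells and 0.171 ± 0.0087 in control cells (SD, n = 6 each), with ranges of 0.162 to 0.176 and 0.157 to 0.179. Relative to E2f1 both were lower: E2f8 per E2f1 was 0.202 to 0.436 in compressed and 0.558 to 0.662 in control libraries, and E2f7 per E2f1 was 0.0352 to 0.0734 in compressed and 0.0921 to 0.113 in control libraries.

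The pocket protein genes moved in opposite directions. Rb1, which encodes the retinoblastoma protein that holds back the activators, had 30.01, 46.5 and 53.0 CPM in compressed cells, against 29.5, 31.1 and 31.6 CPM in control cells. In 5 of 6 compressed libraries Rb1 was above every control, at 45.4 CPM or more, while replicate 6 lay within the control range. The log2 fold change of Rb1 was 0.54 (SE 0.10, 95% interval 0.32 to 0.77, adjusted p = 6.70e-04 from edgeR), and 0.64 without replicate 6. Exons of Lpar6 and Rcbtb2 overlap Rb1 on the opposite strand. Neither was called: Lpar6 changed by 0.15 (adjusted p = 0.139) and Rcbtb2 by 0.0055 (adjusted p = 0.966). Rbl1, which encodes p107, the partner of E2F4 in cycling cells, had 32.9, 48.9 and 54.0 CPM in compressed cells, against 91.5, 95.2 and 99.5 CPM in control cells. The groups were far apart, and replicate 6 was again the lowest library. Rbl1 changed by -1.01 (SE 0.099, 95% interval -1.22 to -0.80, adjusted p = 1.77e-06 from edgeR), a decrease of 50.3%. The ratio of the 2 genes within a library differed between the groups: per kilobase of exon, Rbl1 was 1.06 ± 0.083 times Rb1 in compressed cells and 3.11 ± 0.142 times Rb1 in control cells (SD, n = 6 each). Its range was 0.950 to 1.18 in compressed libraries, replicate 6 included, and 2.91 to 3.34 in control libraries. Rbl2, the third pocket protein gene, which encodes p130, is no member. It had 33.2 ± 6.62 CPM in compressed and 32.6 ± 1.61 CPM in control cells (SD, n = 6 each) and was not called (log2 fold change 0.024, adjusted p = 0.890 from edgeR), but without compressed replicate 6 it was called higher (0.13, adjusted p = 0.00280).

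**Figure D2:**
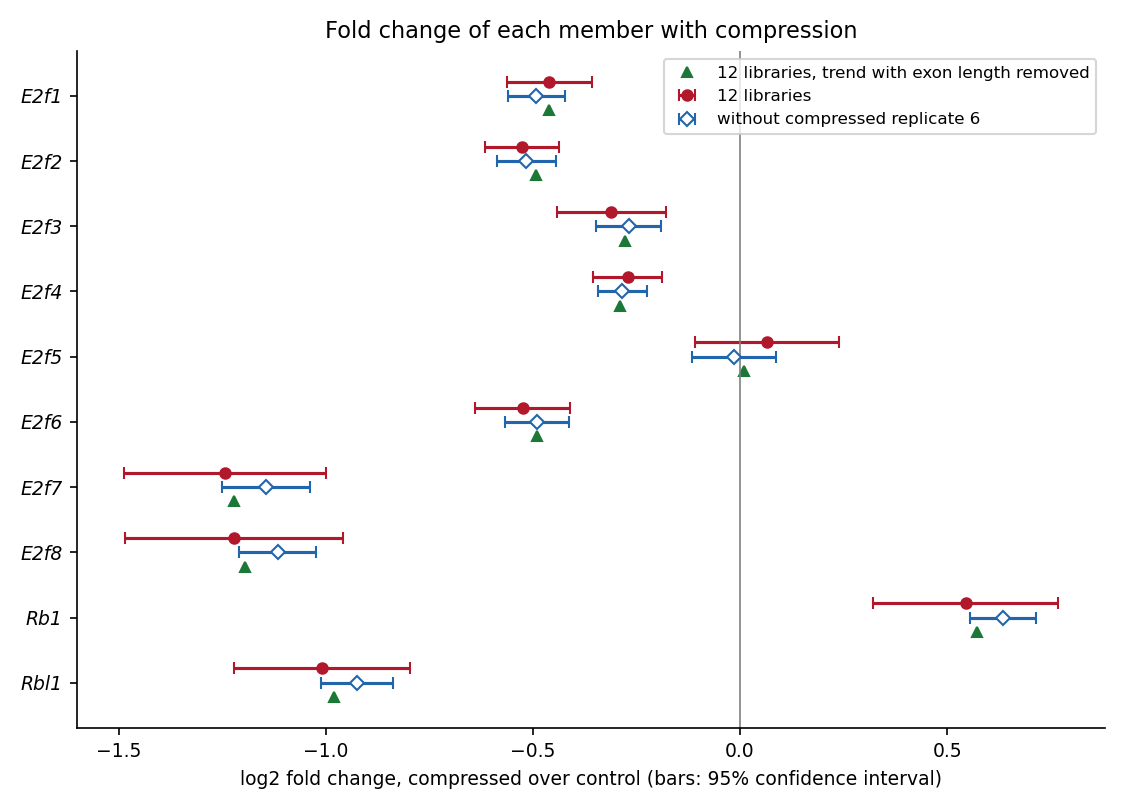
Log2 fold change of each member, compressed over control (horizontal axis), from all 12 libraries (red circles) and without compressed replicate 6 (open blue diamonds), both with 95% confidence intervals, and from 12 libraries with the trend with exon length removed (green triangles). E2f7 (-1.24), E2f8 (-1.22) and Rbl1 (-1.01) lie lowest, Rb1 (0.54) lies above 0, and the interval of E2f5 spans 0.

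Levels of different genes can be compared only per length, here CPM per kilobase of exon. In compressed cells the order of mean levels was E2f4 (41.5), E2f1 (14.2), E2f5 (10.5), Rbl1 (7.89), Rb1 (7.46), E2f3 (6.89), E2f2 (5.78), E2f8 (5.13), E2f6 (4.51) and E2f7 (0.864 CPM per kb). Among neighbours in that order only E2f4 and E2f1, E2f5 and Rbl1, and E2f6 and E2f7 had ranges that did not overlap. Without compressed replicate 6 the ranges of E2f1 and E2f5, of E2f3 and E2f2, and of E2f8 and E2f6 did not overlap either. In control cells the order was E2f4 (50.1), E2f1 (19.5), Rbl1 (15.9), E2f8 (12.0), E2f5 (10.0), E2f3 (8.54), E2f2 (8.32), E2f6 (6.49), Rb1 (5.12) and E2f7 (2.04 CPM per kb), and only E2f3 and E2f2 overlapped. The mean of E2f8 was below those of E2f2 and E2f3 in compressed cells and above them in control cells, and the mean of Rb1 was above those of E2f6, E2f2 and E2f3 in compressed cells and below them in control cells.

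The E2F pool as a whole was smaller in compressed cells and held a smaller share of atypical factors. The 8 E2F genes summed to 89.4 ± 1.07 CPM per kb in compressed cells (range 87.7 to 90.9), against 117 ± 2.05 CPM per kb in control cells (range 113 to 119; SD, n = 6 each). E2f7 and E2f8 made up 6.71% ± 1.37 of that sum in compressed cells and 12.0% ± 0.476 in control cells, with ranges of 4.08% to 8.07% and 11.4% to 12.8%. E2f4 and E2f5 made up 58.2% ± 2.01 in compressed cells and 51.4% ± 0.511 in control cells, with ranges of 56.2% to 61.9% and 50.7% to 52.0%. The 4.08% and the 61.9% both came from compressed replicate 6. In the other compressed libraries E2f7 and E2f8 held 6.79% to 8.07%, and E2f4 and E2f5 held 56.2% to 58.6%. The 3 activators kept nearly the same share, 30.1% ± 0.568 in compressed and 31.1% ± 0.429 in control cells, with ranges that overlapped, and E2f6 held 5.04% and 5.54%. These shares are of transcripts and say nothing of protein.

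**Figure D3:**
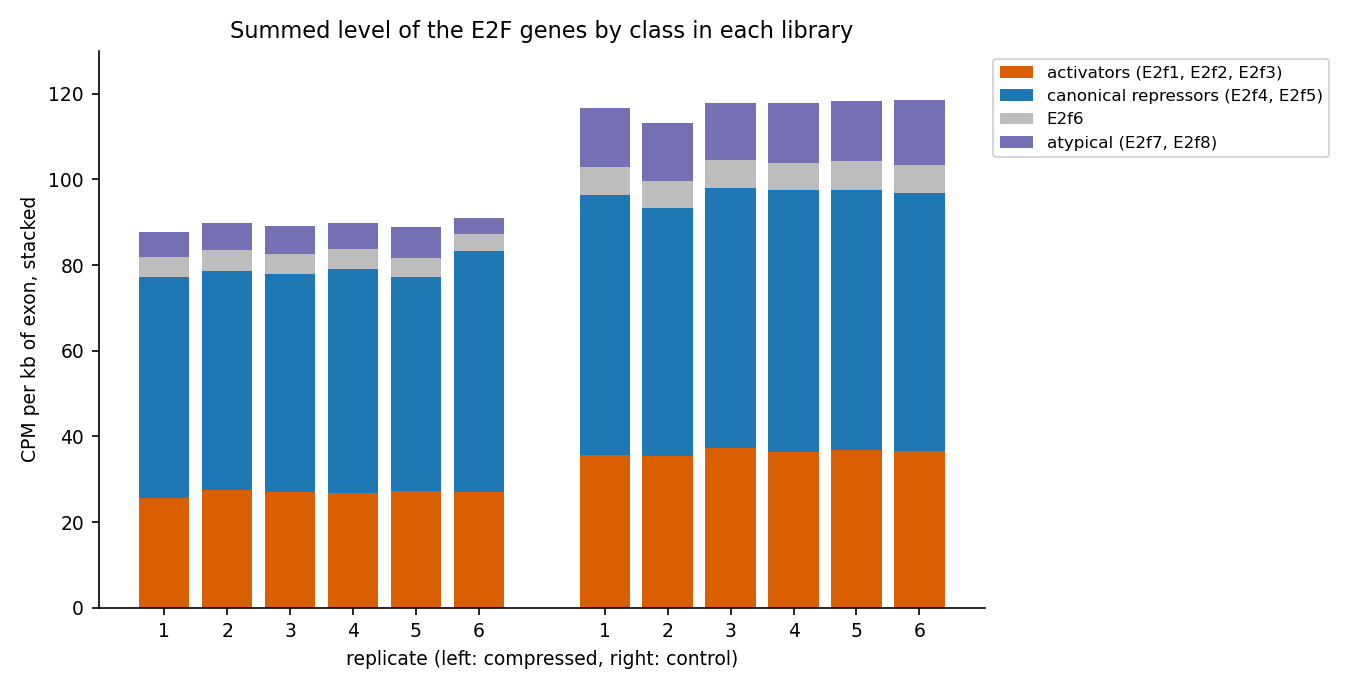
Summed level of the E2F genes in each library (CPM per kb of exon, stacked by class), with compressed replicates 1 to 6 on the left and control replicates 1 to 6 on the right. The compressed sums are 87.7 to 90.9 and the control sums 113 to 119 CPM per kb. In proportion to its control level the atypical class is the most reduced, with means of 5.99 in compressed and 14.0 CPM per kb in control libraries. The activators, at 26.9 and 36.4, and E2f4 with E2f5, at 52.0 and 60.2, lost more in CPM per kb.

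Compressed replicate 6 departed from the other compressed libraries in both directions, depending on the member. On the log2 scale it differed from the mean of the other compressed libraries by 0.41 for E2f5, 0.17 for E2f1 and 0.061 for E2f4, and by -0.60 for Rbl1, -0.67 for Rb1, -0.74 for E2f7 and -0.80 for E2f8. The members that were high in replicate 6 had exon lengths of 1782 to 3154 bases, and the 4 lowest ones 5443 to 9009 bases. Over 14647 tested genes with a length the same difference had a Spearman correlation of -0.55 with exon length, across genes, which are not independent replicates. Its median was 0.51 for genes under 2 kb and -0.44 for genes over 5 kb. After removal of each library's trend with exon length, an alternative chosen after seeing the data, the differences were smaller for E2f5 (0.020), E2f1 (0.029), E2f7 (-0.23), Rbl1 (-0.34), Rb1 (-0.41) and E2f8 (-0.60). That of E2f4 became larger and turned negative, at -0.21, and that of E2f2 turned to 0.067, against -0.066 before. Rb1 in replicate 6 was then 35.4 CPM, above the control range of 29.2 to 31.1 CPM. The compressed over control changes from this fit were -1.22 for E2f7, -1.20 for E2f8, -0.98 for Rbl1 and 0.57 for Rb1. No source used here describes the RNA quality of the samples.

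**Figure D4:**
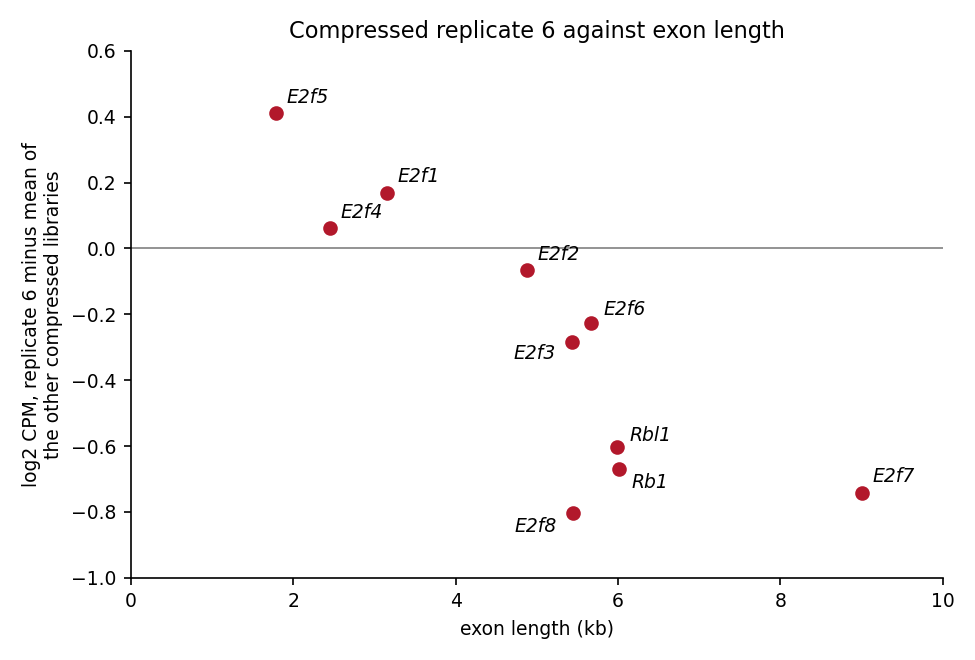
Difference of compressed replicate 6 from the mean of the other 5 compressed libraries (log2 CPM, vertical axis) against exon length (kb, horizontal axis), 1 point per member. E2f5, the shortest at 1782 bases, lies highest at 0.41, and E2f7, E2f8, Rb1 and Rbl1 lie at -0.60 or below.

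Genes that E2F and DREAM are known to control fell together. All 33 genes of a list of E2F targets of the G1/S transition were called lower by edgeR, with a median log2 fold change of -1.04 and a range of -1.42 to -0.52. The 3 largest decreases were those of Mcm10, which helps to start replication forks (26.6 ± 2.53 CPM in compressed and 71.1 ± 1.26 CPM in control cells), Mcm6, which encodes part of the helicase that opens DNA (117 ± 9.63 and 288 ± 7.90 CPM), and Rrm2, a subunit of ribonucleotide reductase (84.4 ± 5.67 and 201 ± 6.94 CPM; SD, n = 6 each). All 22 genes of a list of G2/M genes bound by DREAM were called lower too, with a median of -0.91 and the largest decreases in the anaphase activator Cdc20 (-1.11), the mitotic kinesin Kif20a (-1.11) and the kinase Plk1 (-1.10). In both lists every gene had groups that did not overlap. No gene of either list was called higher by edgeR at an unadjusted p of 0.05, by DESeq2 or by limma voom. Of the 26 G1/S genes with a RefSeq promoter window, 14 (53.8%) held the E2F letters and 4 (15.4%) the CHR letters. Of 18 G2/M genes with a window, 1 (5.56%) held the E2F letters and 13 (72.2%) the CHR letters.

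The partners of the E2F proteins fell as well. Tfdp1, which encodes the main dimerisation partner DP1, had 148 ± 5.14 CPM in compressed and 237 ± 5.44 CPM in control cells (SD, n = 6 each), a log2 fold change of -0.68 (adjusted p = 1.27e-08 from edgeR). Tfdp2, for DP2, changed by -0.80. Of 7 measured genes of the MuvB core and its associates 5 were called lower and 2 not called. Mybl2, the B-Myb factor that takes the place of E2F4 and p130 on MuvB in cycling cells, had 47.4 ± 6.00 CPM in compressed and 125 ± 2.51 CPM in control cells, and at -1.40 its decrease was larger than that of any member. Foxm1, which drives G2/M genes, changed by -1.05, the core genes Lin9 and Rbbp4 by -0.60 and -0.43, and Lin52 by -0.17 (adjusted p = 0.0425 from edgeR). The call of Lin52 was lost in 9 of the 12 fits that left out 1 library, and that of Rbbp4 with the trend with exon length removed. Lin37 (0.027) and the kinase gene Dyrk1a (-0.18, and -0.09 with a call without compressed replicate 6) were not called, and Lin54 was not analysed here.

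Genes acting on RB phosphorylation moved in both directions. Of 9 genes of the cyclins and kinases that phosphorylate pocket proteins 3 rose and 4 fell, where 24.5% of all tested genes rose and 21.9% fell. Those that rose act early in G1: Ccnd2 (0.48), Ccnd3 (0.28) and Cdk6 (0.36). Those that fell act from the G1/S transition onward: Ccne1 (-0.77), Ccne2 (-0.80), Cdk2 (-0.39) and Ccna2 (-0.90). Ccnd1 (-0.06) and Cdk4 (-0.15) were not called, but without compressed replicate 6 Cdk4 was called lower (-0.26). Of the inhibitors of these kinases, Cdkn1a, which encodes p21, had 661 ± 61.8 CPM in compressed and 338 ± 9.99 CPM in control cells (SD, n = 6 each), a log2 fold change of 0.97 (adjusted p = 2.15e-08 from edgeR). Cdkn1b (0.44) and Cdkn2d (0.35) also rose and Cdkn2c (-0.68), for p18, fell. Cdkn1c, Cdkn2a and Cdkn2b had 0 counts in every library.

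Genes of the proteins that act on or with the members showed mostly lower levels. The 3 ubiquitin ligase genes fell: Ccnf (-1.09), whose cyclin F directs E2F proteins to degradation, Skp2 (-0.73) and Fzr1 (-0.23). Of 7 genes of chromatin proteins that RB recruits 4 were called lower: the histone methyltransferase gene Suv39h1 (-0.98), Cbx5 (-0.80), which encodes HP1 alpha, and the deacetylase genes Hdac1 (-0.27) and Hdac2 (-0.25). Sin3b (0.12), Smarca4 (-0.15) and Kdm5a (0.15) were not called, but Kdm5a was called higher without compressed replicate 6 (0.22). Among 7 tested apoptosis genes that E2F1 can activate 3 rose, where 24.5% of all tested genes did. They were the BH3-only genes Bbc3 (0.35) and Pmaip1 (0.34) and Casp8 (0.13). Casp8 was not called with library size alone, with a replicate block or without the low-count filter. Apaf1 (0.07) and Bcl2l11 (0.08) were not called with all libraries and were called higher without compressed replicate 6 (0.18 and 0.12). Trp73, with 12 counts over the compressed and 2 over the control libraries, was too low to test.

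**Figure D5:**
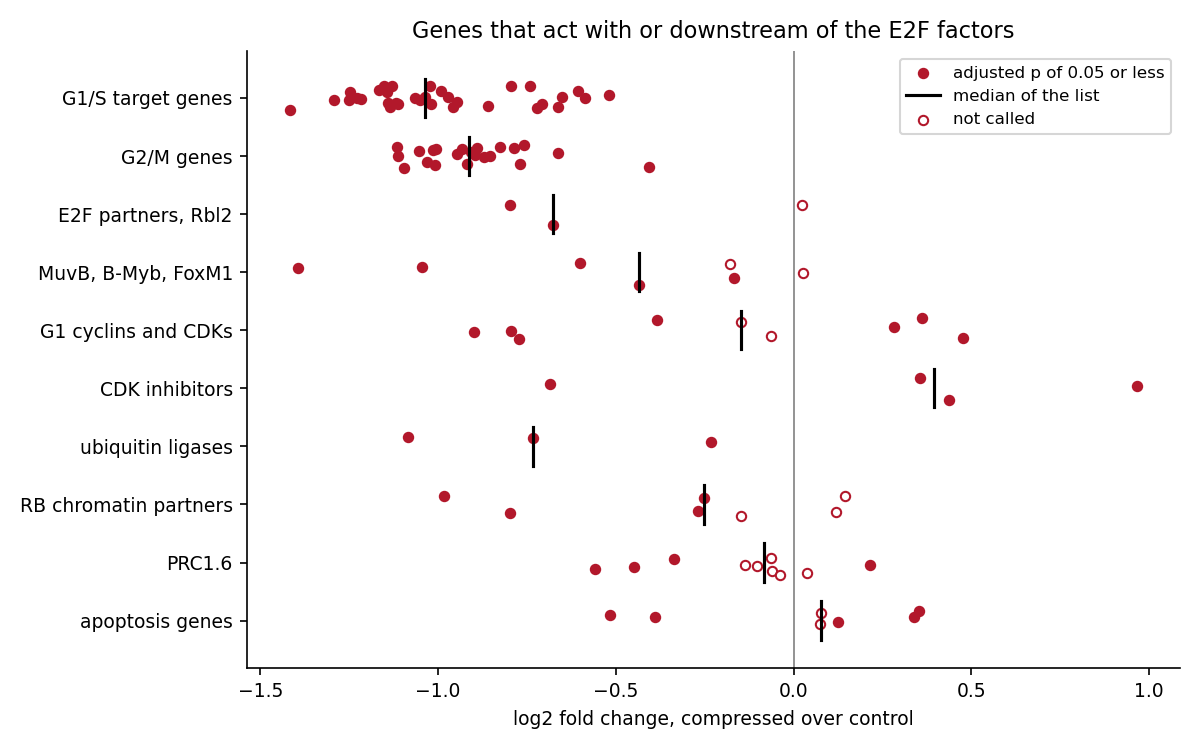
Log2 fold change, compressed over control (horizontal axis), of each tested gene in 10 lists, with filled circles for an adjusted p of 0.05 or less, open circles for genes not called and black lines for list medians. The G1/S targets (median -1.04) and G2/M genes (median -0.91) lie wholly below 0, and the kinase inhibitors (median 0.39) mostly above.

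The genes whose log2 CPM followed a member most closely over the 12 libraries are given as a description, since a correlation over both groups is set mainly by the difference between them. Compressed replicate 6, where Rb1 was at 30.01 CPM and within the control range, was among the 12. Matches without that library were not computed. For E2f1 they were Fen1, a flap endonuclease gene of DNA replication, Ccdc86 and the centromere protein gene Cenpb (Pearson r = 0.992, 0.992 and 0.990). For E2f7 they were Bend3, Zfp280b and Ddx27 (r = 0.995 each). For Rb1 they were the phospholipid flippase gene Atp11b (r = 0.994), Klhl24 (0.989) and Abhd4 (0.988), which shared its increase: Klhl24 averaged 52.4 ± 10.4 CPM in compressed and 30.7 ± 2.09 CPM in control cells (SD, n = 6 each).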

How the data were processed

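Directional mRNA libraries from 12 RAW264.7 samples were sequenced by the authors, aligned with STAR 2.7.2, with GRCm39 named in the submitters' processing notes, and deposited as whole-number counts per Ensembl gene. How reads were counted (program, strand setting, annotation release) is not given in the sources used here. Symbols, exon lengths and gene positions came from GENCODE M21 (GRCm38), matched by ID for 51948 of 56941 IDs, which hold 99.5% of the counts, and promoter windows from RefSeq (GRCm38.p6). Coordinates are on GRCm38 and not on the assembly of the alignment.

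The tests were run with edgeR 4.0.16 under R 4.3.3: filterByExpr with a minimum count of 10, TMM scaling, and the quasi-likelihood test of compressed against control without a block, with Benjamini-Hochberg adjustment over all tested genes. Intervals are 95%. Standard errors were derived from the fold change and its F statistic. Log2 CPM used a prior count of 2. Tables and plots were made in Python 3.11.15 with pandas 2.3.3, NumPy 2.4.6 and matplotlib 3.10.9. The fit was tested on simulated data. There edgeR recovered 10 of 50 genes changed 1.25-fold, 31 of 50 changed 1.5-fold and 46 of 50 changed 2-fold. It also called 6 unchanged genes. A gene that was not called may therefore have a small change. Alternatives were DESeq2 1.42.0, limma 3.58.1 (voom), RLE factors, an adjusted p of 0.01, scaling by library size alone, a filter at a mean normalized count of 50 or no filter, a replicate block, leaving out each library and, chosen after seeing the data, removal of the trend with exon length, with and without compressed replicate 6. No 2 libraries of a group agreed within counting error.

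All members were to be named, every gene of a list of 10 or fewer, and of longer lists the 3 called genes with the largest change and any that went against the majority. Members and lists were chosen with earlier results of these data known, so their counts are descriptions beside those over all genes. Some genes of these lists are not reported here, so the genes named from a list need not be all that changed.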

Additional observations from a re-analysis of the deposited data

Results flagged for a closer look

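Each member's CPM was examined in both groups for a library far from the other 5, by the gap to the nearest library over the range of the group. Of 20 groups 5 passed Dixon's critical value, where chance passes about 1 in 20. Compressed replicate 6 was the lowest library for E2f7 (0.691), E2f8 (0.640) and Rb1 (0.666), at 4.96, 17.2 and 30.01 CPM. Control replicate 6 was the highest for E2f8 (0.732), at 71.5 CPM, and control replicate 2 the lowest for E2f4 (0.650), at 119 CPM. All 3 genes that were low in compressed replicate 6 have exon lengths of 5443 bases or more, and their values with the trend with length removed are given above.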

How the results depend on the processing

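Calls of the members did not depend on the processing: 8 were called lower and Rb1 higher under every alternative run, with adjusted p-values of at most 0.0045 for E2f3 and less for the others. E2f5 was never called, and leaving out each library in turn gave log2 fold changes of -0.014 (without compressed replicate 6) to 0.10 (without compressed replicate 4). The numbers of the samples were not taken as pairs, since compressed and control libraries of 1 number correlated at -0.12 to 0.040 after removal of group means. With a replicate block 8 members were called lower and 1 higher, and 3299 genes higher and 3094 lower over all genes, against 3677 and 3283 without it. Library size alone gave 5 lower genes of PRC1.6 instead of 3. Leaving out 1 library gave 0 to 1 gene higher among the E2F partners, 3 to 5 lower of PRC1.6, 3 to 5 higher of the apoptosis genes and 0 to 1 higher of the RB chromatin partners, and each upper value was that without compressed replicate 6. Removal of the trend with exon length gave 1 higher RB chromatin partner, and together with leaving out replicate 6 it gave 1, 5, 5 and 1 for these 4 counts. The cause was not tested. The germline genes and Trp73 had too few counts to be tested.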
